A study of Mus musculus with 4 samples.

Results

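Id1, Id2 and Id3, which encode inhibitors of DNA binding, and Tcf3, Tcf4 and Tcf12, which encode the E proteins E2A, E2-2 and HEB, were read as 1 gene family on 4 mouse arrays. The members were chosen by name, and each value came from a probe set annotated with a single gene symbol. All 6 genes were found among 22180 named genes, each with 1 probe set. The data are log2 RMA values, in which a difference of 1 is a 2-fold difference.

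E proteins are basic helix-loop-helix transcription factors that bind the E box, a short DNA motif, as dimers and drive lymphocyte lineage genes, among them those of T cell receptor rearrangement. Id proteins have the helix-loop-helix but no basic region, so an E protein paired with an Id protein does not bind DNA. In thymocytes, receptor signals induce Id3 through Egr factors. In CD8 T cells, Id2 accompanies effector cells and Id3 accompanies cells that become memory cells.

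The 4 populations were CD4 T lineage cells of 8-week-old C57BL/6 mice, with 1 array each. Natural Th1 cells (nTh1) were thymocytes of CIITAtg mice sorted as CD4+CD62L+CXCR3+, and TT naive cells were the CXCR3- cells of the same sort and genotype. CIITAtg denotes a transgene of CIITA, the master regulator of MHC class II genes, and the sources used here do not name the promoter that drives it. Classical Th1 cells (cTh1) were wild-type splenic CD4+CD62Lhi cells stimulated for 5 days on CD3/CD28 beads in 2 ng/ml of IL-12 and 50 U/ml of IL-2, with IL-4 blocked. Naive cells were CD4+CD62Lhi cells of wild-type spleen. The sources used here do not say whether animals were pooled.

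With 1 array per group there was no replicate check and no test, and every statement below describes these 4 arrays. A gene entered a comparison where either array reached the median of all values, 6.61. A gene that entered only through the array where it was high was favoured by this filter in a count of differences. All 8 T cell markers were above that level on every array, and their summed level differed little, at 15.32 in nTh1, 15.38 in cTh1, 15.42 in TT naive and 15.34 on the array labelled naive. Cxcr3 was at 9.91 in nTh1 and 7.76 in TT naive. The array labelled naive went against its label, with Cxcr3 at 9.80, the Th1 factor Tbx21 at 9.81 and Zbtb16, which encodes PLZF, a regulator of innate-like lymphocytes, at 12.23. It is called the array labelled naive throughout, and the members' differences of cTh1 from it are also given against TT naive. In these bulk samples, fewer cells expressing a gene and less RNA per cell cannot be told apart.

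The sequences upstream of Id3 and Id2 are shown because these 2 inhibitors had different patterns over the arrays. They are the 250 bases before each start site, 5′ to 3′ on the gene's strand, from RefSeq on GRCm38.p6. Capitals mark the E box motif CANNTG, which reads the same on both strands. The Id3 window is chr4:136143572-136143821 on the plus strand, and the Id2 window is chr12:25096093-25096342 on the minus strand.
Id3: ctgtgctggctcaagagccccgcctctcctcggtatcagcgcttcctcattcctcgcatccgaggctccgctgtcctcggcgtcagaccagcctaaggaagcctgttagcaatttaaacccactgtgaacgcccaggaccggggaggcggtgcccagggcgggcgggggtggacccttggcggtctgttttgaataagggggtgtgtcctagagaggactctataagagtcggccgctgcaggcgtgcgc
Id2: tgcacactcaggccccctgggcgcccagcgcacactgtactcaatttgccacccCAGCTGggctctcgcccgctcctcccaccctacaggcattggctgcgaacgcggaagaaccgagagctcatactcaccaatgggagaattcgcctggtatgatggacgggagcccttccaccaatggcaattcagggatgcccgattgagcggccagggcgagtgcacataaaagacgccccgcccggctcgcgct

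The Id2 window held 1 match to CANNTG, at positions -196 to -191 relative to the start, with the letters CAGCTG, and the Id3 window held 0. Both windows have a GC content of 62.8%. Among 32851 mouse windows of the same length, 66.2% held CANNTG and 13.0% held CAGCTG, which is 1 of the forms of CANNTG. A second form searched, CACCTG on either strand, was found in 17.2% of them and in neither Id window. The Egr motif GCGNGGGCG, searched on both strands, was in 4.7% of all windows and in neither Id window. These matches describe letters only.

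Id3 differed most among the inhibitors. Its log2 value was 8.59 in nTh1, 8.37 in cTh1, 10.37 in TT naive and 10.20 on the array labelled naive. Both Th1 arrays were low and both arrays with a naive label were high, and these pairs did not overlap. The gap between the lower naive array and the higher Th1 array was 1.60 on the log2 scale, while nTh1 and cTh1 differed by 0.22 and TT naive and the array labelled naive by 0.17. In Tcf3 and Tcf4 the pairs did not overlap either, with both Th1 arrays higher and gaps of 0.13 and 0.21. The same held for Id1, below the filter, with a gap of 0.18. The gaps of Tcf3, Tcf4 and Id1 were all smaller than the technical error described below, which was lowest in nTh1 over TT naive, at 0.257. How many of all genes separate the pairs by gaps this small was not counted, so no weight is placed on the order in these members.

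**Figure D1:**
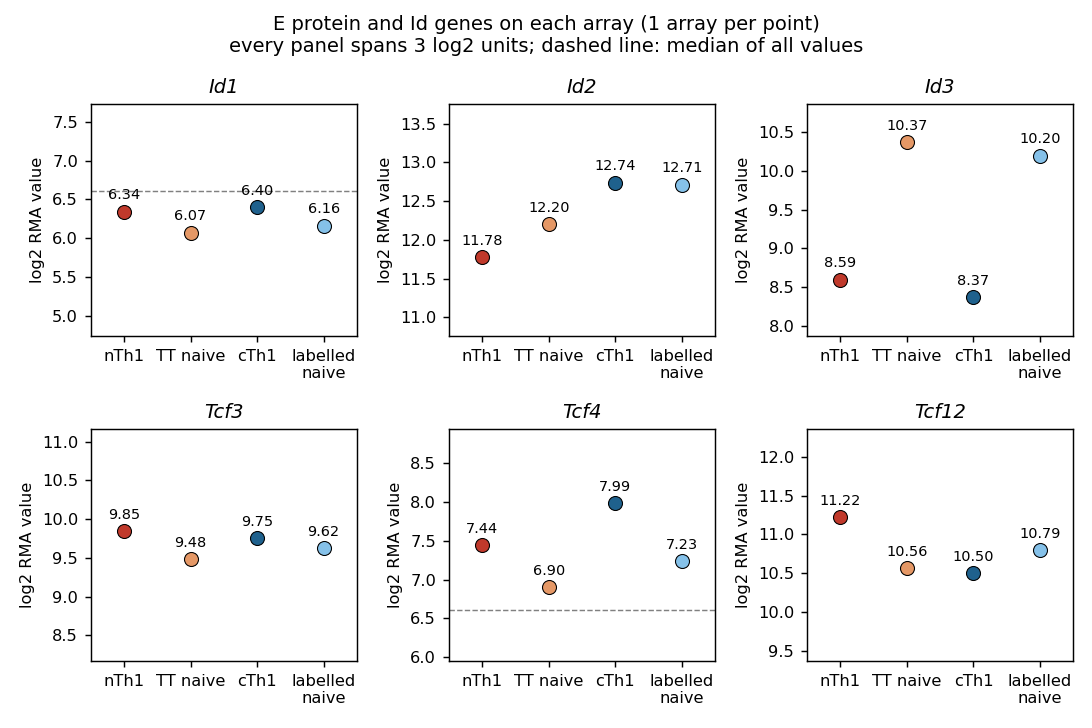
Log2 RMA value (vertical axis) of each of the 6 genes on each of the 4 arrays (horizontal axis), 1 point per array, with the dashed line at the median of all values, 6.61. Id3 is between 8.37 and 8.59 in nTh1 and cTh1 and between 10.20 and 10.37 on both naive arrays, and Id1 lies below the line on all 4 arrays.

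Within the thymus, Id3 was -1.77 in nTh1 relative to TT naive, 3.42-fold lower. Counted from the lowest, this was rank 27 of the 12435 genes above the level filter. Within the spleen, Id3 was -1.83 in cTh1 relative to the array labelled naive, 3.55-fold lower, at rank 109 of 12835. Against TT naive cells, Id3 was -2.00 in cTh1, 3.99-fold lower. Where a gene had several probe sets, their differences could be set against each other, and this spread was the single measure of error. It comes from other genes, since each member had 1 probe set, and it holds technical error only, with no variation between animals or samples. Within thymus its SD was 0.257, within spleen it was 0.402, and between cTh1 and TT naive it was 0.440. Relative to it, the Id3 difference was 6.91 times as large in nTh1 over TT naive, and 4.54 times as large both in the spleen comparison and in cTh1 over TT naive. The summed level of 10 myeloid markers was 11.93 in nTh1, 10.55 in TT naive, 10.92 in cTh1 and 11.42 on the array labelled naive. In nTh1 over TT naive, 7 of the 10 were at least 2-fold higher, where 1.41% of all genes were. Of these markers, Lyz2, Mpeg1, C1qc and Csf1r were below the filter in TT naive and entered through nTh1 alone. The part of the myeloid markers in the Id3 values was not tested.

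In nTh1 over TT naive, Id3 was the only 1 of the 5 members above the filter to differ by 2-fold or more, on the low side, where 1.09% of all genes were at least 2-fold lower and 1.41% at least 2-fold higher. In cTh1 over the array labelled naive it was again Id3 alone, lower, against a background of 3.35% lower and 5.13% higher. In cTh1 over TT naive, Id3 was lower and Tcf4 higher, where 3.02% of genes were lower and 7.24% higher. In nTh1 over the array labelled naive, Id3 was lower at -1.60, where 4.43% of genes were lower and 1.93% higher. No member reached 2-fold in nTh1 over cTh1, where 8.3% of genes were lower and 3.46% higher, or in TT naive over the array labelled naive, where 2.59% were lower and 0.795% higher. The median difference of the 5 members above the filter was 0.36 in nTh1 over TT naive beside -0.05 for all genes tested, and 0.03 in cTh1 over the array labelled naive beside -0.02. In cTh1 over TT naive it was 0.27 beside 0.03. These 6 comparisons reuse the same 4 arrays. The comparison within thymus and the one within spleen have no array in common.

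**Figure D2:**
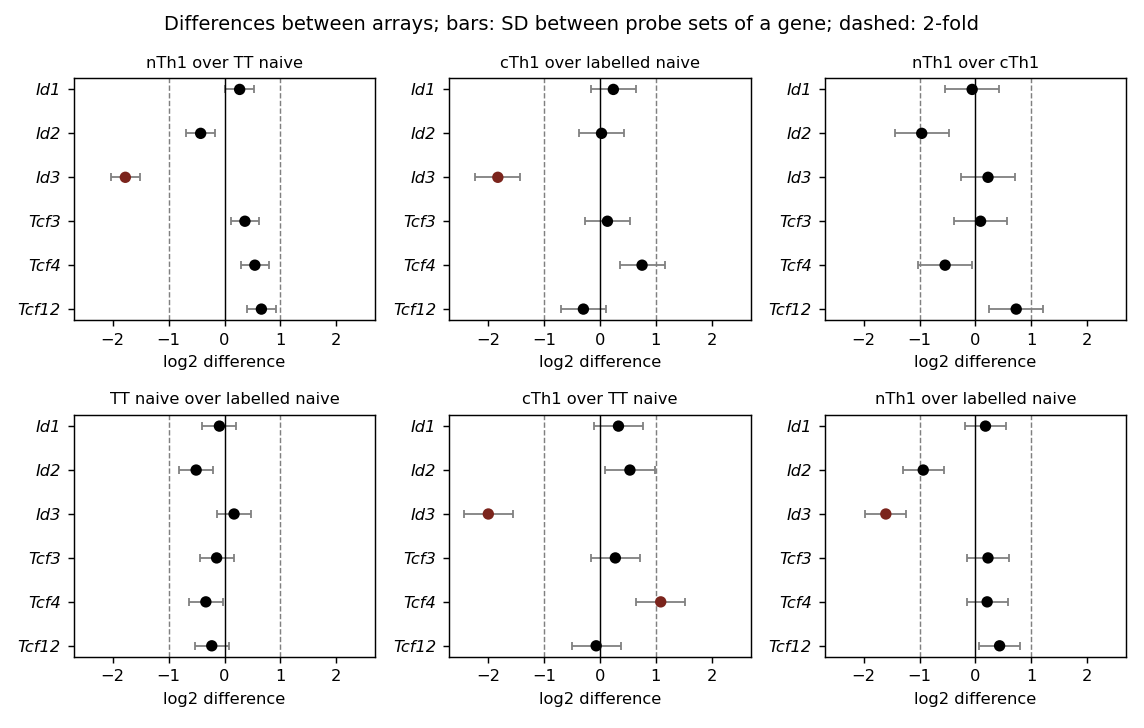
Log2 difference (horizontal axis, first array minus second) of each gene (rows) in the 6 comparisons, with bars of 1 SD between probe sets of a gene and dashed lines at 2-fold. Id3 lies past the lower line in 4 panels, and Tcf4 lies past the upper line in cTh1 over TT naive at 1.09.

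The comparisons within thymus and within spleen gave Id3 nearly the same difference, -1.77 and -1.83. The other members lay nearer to 0 on both axes. Of the 136 genes at least 2-fold lower in nTh1 than in TT naive, 56 were also at least 2-fold lower in cTh1 than on the array labelled naive, which is 41.2% of the thymus list and 13.0% of the 430 genes of the spleen list. Of all genes tested, 3.35% were at least 2-fold lower in the spleen comparison and 1.09% in the thymus comparison. Id3 was 1 of the 56 shared genes. The overlap rests on the array labelled naive, and an overlap with TT naive in its place would use that array in both lists.

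**Figure D3:**
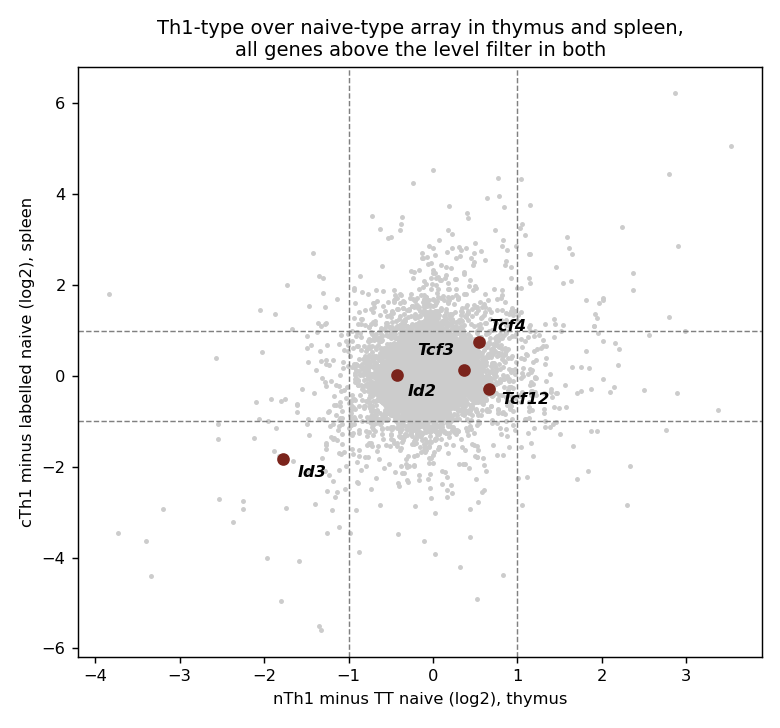
Difference of nTh1 minus TT naive (horizontal axis, log2) against cTh1 minus the array labelled naive (vertical axis, log2) for 12032 genes above the level filter in both, with dashed lines at 2-fold. Id3 lies in the lower left corner at -1.77 and -1.83, and Id2, Tcf3, Tcf4 and Tcf12 lie within the lines.

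Over all 4 arrays, grouped by label, 41 of 13238 genes (0.31%) had both naive arrays at least 2-fold above both Th1 arrays. Id3 ranked 10 among them by the size of its gap. The reverse pattern was found in 21 genes (0.159%). This count was chosen after the values of Id3 were seen. Other readings separated the arrays in the same way. The Y-linked Kdm5d, Eif2s3y and Uty were among the 41, with Eif2s3y at 5.16 in nTh1 and 4.97 in cTh1, against 8.55 in TT naive and 8.61 on the array labelled naive. Xist was between 12.56 and 13.25 on all 4 arrays, so both naive arrays carried Xist together with Y-linked transcripts. The sample descriptions of nTh1 and cTh1 also end in a number, and those of the naive samples do not. The sources used here do not say what the number marks, and its part and that of the animals' sex in the Id3 values were not tested.

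The genes nearest to Id3 in pattern were taken by the Euclidean distance between the 4 log2 values, each gene set to its own mean, among 2364 other genes with a span of at least 1. They were Ampd1 at a distance of 0.39, Man1c1 at 0.42, Gpr83 at 0.43, Apol9b at 0.43 and Pstpip2 at 0.44. Ampd1 encodes an AMP deaminase, Man1c1 a mannosidase of the Golgi apparatus and Gpr83 a receptor known from regulatory T cells. Within 0.5 of Id3 lay 7 genes.

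Among 17 genes of signals known to induce Id genes, Egr3 was the single one in the group of 41. Egr3, a zinc finger factor induced by T cell receptor signals, was at 8.28 in nTh1 and 8.38 in cTh1, against 9.45 in TT naive and 9.74 on the array labelled naive. Its relative Egr2 was at 9.36 in nTh1 and 9.25 in cTh1, against 10.44 in TT naive and 10.30 on the array labelled naive. Both were low where Id3 was low, and the gap of Egr2 stayed under 2-fold. Egr1 did not follow, at 9.39 in nTh1, 10.44 in cTh1, 10.07 in TT naive and 10.00 on the array labelled naive.

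In nTh1 over TT naive, 12 of the 17 induction genes were above the filter. Of these, 2 were at least 2-fold lower (Egr3 at -1.17 and Egr2 at -1.08) and 0 higher. Among all genes tested, 1.09% were lower and 1.41% higher, and the list median was -0.07 beside -0.05 for all genes tested. In cTh1 over the array labelled naive, Egr3 at -1.36 and Egr2 at -1.05 were lower and Bmpr1a, a BMP receptor, was higher by 1.83, with a list median of -0.07 beside -0.02. Against TT naive, cTh1 had Egr2 at -1.19, Egr3 at -1.07 and Bmpr1a at 2.28. Bmpr1a passed the filter through cTh1 alone. In nTh1 over cTh1, Smad7, the inhibitory Smad of TGF-beta signalling, was higher by 1.38, while Bmpr1a was at -1.88 and Egr1 at -1.04. BMP signals induce Id1, Id2 and Id3 in many cells.

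**Figure D4:**
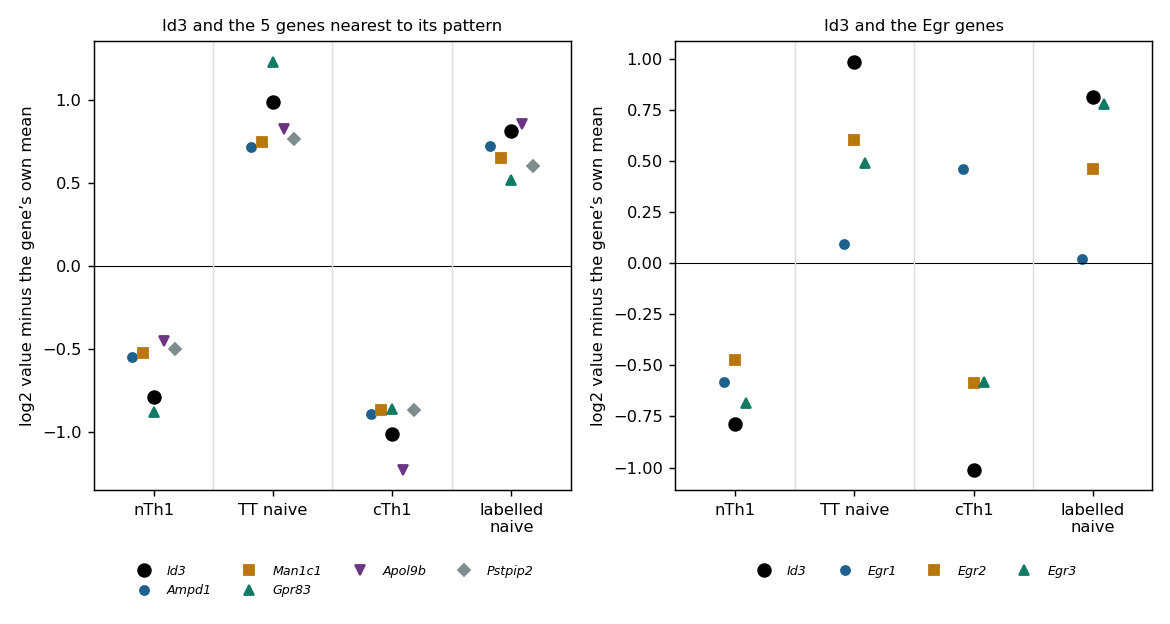
Log2 value minus the gene's own mean (vertical axis) on the 4 arrays (horizontal axis) for Id3 with the 5 genes nearest to its pattern (left) and with Egr1, Egr2 and Egr3 (right). Id3, Egr2 and Egr3 lie below their mean in nTh1 and cTh1 and above it on both naive arrays, while Egr1 is highest in cTh1.

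Id2 had another order. It was at 11.78 in nTh1, 12.74 in cTh1, 12.20 in TT naive and 12.71 on the array labelled naive. The nTh1 array was lowest, and cTh1 and the array labelled naive differed by 0.03, less than the spread between probe sets. With TT naive as the baseline, Id2 was higher by 0.53 in cTh1. Id2 was -0.43 in nTh1 relative to TT naive, -0.96 relative to cTh1 and -0.93 relative to the array labelled naive, all short of 2-fold. With each array centred on its own median, which moves nTh1 by 0.18 relative to cTh1, Id2 passed 2-fold in the last 2 of these, at -1.14 and -1.07. In that scaling the share of higher genes among all calls was 15.9% in place of 29.4% for nTh1 over cTh1, and 17.7% in place of 30.3% for nTh1 over the array labelled naive. With a loess trend removed, the share for nTh1 over the array labelled naive was 41.8%.

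Id2 and Id3 differed unequally between arrays. Relative to Id3, Id2 was 2.54-fold higher in nTh1 than in TT naive and 3.62-fold higher in cTh1 than on the array labelled naive. With TT naive as the baseline for cTh1 the shift was 5.79-fold. In nTh1 over cTh1, Id2 shifted the other way relative to Id3, by -1.19 on the log2 scale. These values compare differences, not levels of the 2 genes.

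Of the genes that accompany Id2 in effector cells, 9 were measured, and their list median had the sign of the Id2 difference in 5 of the 6 comparisons, which reuse the same arrays and in 1 of which Id2 differed by 0.03 alone. The exception was nTh1 over TT naive, where Id2 was -0.43 and the list median was 0.81 beside -0.05 for all genes. There 7 passed the filter and 3 were 2-fold or more higher, where 1.41% of all genes were. These 3 were Prf1, which encodes perforin, at 2.02, Gzma, which encodes granzyme A, at 1.64 and Ifng at 1.46. Gzma and Ifng were below the filter in TT naive, and with the filter at the 75th percentile only 1 gene of the list was called.

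In cTh1 over the array labelled naive, 5 of 9 were higher, where 5.13% of all genes were. Gzmb, which encodes granzyme B, led them at 4.89. Id2 was at 0.03 there and the list median was 1.45 beside -0.02. With TT naive as the baseline, 7 of 9 were higher in cTh1, where 7.24% of all genes were. The list median was 2.05 beside 0.03, with Id2 at 0.53. Gzmb, Gzma, Ifng and Klrg1 were below the filter in TT naive, so they entered through cTh1 alone. In nTh1 over cTh1, 6 of 9 were lower and 0 higher, where 8.3% of all genes were lower and 3.46% higher. Id2 was at -0.96 there and the list median was -1.99 beside -0.08. Gzmb and Klrg1 were below the filter in nTh1 and entered through cTh1 alone. In TT naive over the array labelled naive, 4 of 8 were lower and 0 higher, where 2.59% of all genes were lower and 0.795% higher. Id2 was at -0.51 there and the list median was -1.15 beside -0.06. Ifng, Gzmb and Gzma were below the filter in TT naive and entered through the array labelled naive alone. In nTh1 over the array labelled naive, 3 of 8 were lower and 1 higher, where 4.43% of all genes were lower and 1.93% higher. Id2 was at -0.93 there and the list median was -0.21 beside -0.10. Gzmb was below the filter in nTh1. The array labelled naive had the NK and myeloid marker Fcer1g at 9.57, against 7.09 in TT naive. The summed level of 7 NK markers was 11.44 in nTh1, 11.13 in cTh1, 9.80 in TT naive and 11.24 on the array labelled naive. Among them, Ncr1, Klrb1c and Klre1 were below the filter on all 4 arrays, so the sum rested mainly on Eomes, Gzma, Tyrobp and Fcer1g. Tyrobp and Fcer1g are also among the myeloid markers. The part of this sum in the Id2 values was not tested.

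Few memory and naive genes that accompany Id3 in CD8 T cells reached 2-fold where Id3 did, and Eomes, a T-box factor, went opposite ways. Of 12 measured, all above the filter, 0 were at least 2-fold lower in nTh1 than in TT naive and 1 was higher, Eomes at 1.84. Of all genes, 1.09% were lower and 1.41% higher there, and the list median was 0.06. In cTh1 over the array labelled naive 1 was lower, Eomes at -2.09, and 0 were higher, where 3.35% of all genes were lower and 5.13% higher. The list median was 0.42 beside -0.02. Bcl6, a transcriptional repressor that directs follicular helper cells, was at 0.96 in that comparison, short of 2-fold. The count depended on scaling, since 2 genes of the list reached 2-fold there with arrays centred on their medians or a loess trend removed. In cTh1 over TT naive, Id3 was -2.00 and 0 of 12 reached 2-fold in either direction, where 10.3% of all genes did. The list median was 0.13 beside 0.03 for all genes. Bach2, a factor of quiescent T cells, was higher by 1.15 in nTh1 than on the array labelled naive.

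Id1 was below the median of all values on all 4 arrays. It was at 6.34 in nTh1, 6.40 in cTh1, 6.07 in TT naive and 6.16 on the array labelled naive. It passed no filter, so no difference of Id1 entered a comparison. Id4, the remaining inhibitor, listed among the cofactors, was at 6.64 in nTh1, 7.07 in cTh1, 6.75 in TT naive and 7.01 on the array labelled naive, within 2-fold throughout. Endothelial and stromal markers, from cells in which Id1 is often found, had a summed level of 11.36 in nTh1, 11.47 in cTh1, 11.72 in TT naive and 11.38 on the array labelled naive. This sum rested mainly on Pecam1, between 10.88 and 11.37 on the 4 arrays, while every other marker was at 7.39 or lower.

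Among the E proteins, Tcf3 varied least. It was at 9.85 in nTh1, 9.75 in cTh1, 9.48 in TT naive and 9.62 on the array labelled naive, a span of 0.36. It was higher by 0.36 in nTh1 than in TT naive and by 0.13 in cTh1 than on the array labelled naive, or by 0.27 with TT naive as the baseline for cTh1. The difference of nTh1 over cTh1 was 0.09, and it turned to -0.09 with each array centred on its median.

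Tcf12, which encodes HEB, was highest in nTh1. It was at 11.22 in nTh1, 10.50 in cTh1, 10.56 in TT naive and 10.79 on the array labelled naive. It was higher by 0.66 in nTh1 than in TT naive, 2.57 times the SD between probe sets, and by 0.73 than in cTh1. The array labelled naive was next, 0.43 lower than nTh1. In the spleen comparison Tcf12 was -0.30 in cTh1. TT naive and cTh1 differed by 0.07, less than the spread between probe sets. Relative to Id3, Tcf12 was 5.40-fold higher in nTh1 than in TT naive and 2.89-fold higher in cTh1 than on the array labelled naive, or 3.81-fold higher in cTh1 than in TT naive.

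Of 6 measured markers of CD8 cells and double positive thymocytes, Dntt, Ptcra and Rag2 were highest in nTh1, as Tcf12 was, and Cd8a, Cd8b1 and Gzmk were highest in cTh1. Dntt, the terminal transferase of receptor rearrangement and a known E protein target, was at 9.47 in nTh1, 8.58 in cTh1, 7.46 in TT naive and 6.87 on the array labelled naive. Ptcra, the pre-T cell receptor alpha chain and another known E protein target, was at 7.72 in nTh1, 7.06 in cTh1, 7.14 in TT naive and 7.33 on the array labelled naive, the same order of arrays as Tcf12. Rag2 was at 6.19 in nTh1, below the level filter, and lower elsewhere. Cd8a was near its low values in nTh1, at 6.42, and at 10.31 in cTh1. The summed level of the 6 markers was 11.0 in nTh1, 12.43 in cTh1, 10.23 in TT naive and 9.80 on the array labelled naive. Their part in the Tcf12 values was not tested.

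Tcf4, which encodes E2-2, the E protein of plasmacytoid dendritic cells and also of B cells, was highest in cTh1. It was at 7.44 in nTh1, 7.99 in cTh1, 6.90 in TT naive and 7.23 on the array labelled naive. It was higher by 1.09 in cTh1 than in TT naive, 2.12-fold, and by 0.75 than on the array labelled naive, short of 2-fold. In the thymus it was higher by 0.54 in nTh1 than in TT naive. With the filter raised to the 75th percentile, Tcf4 entered no comparison.

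B cell markers had the same order of arrays in their summed level. Of 7 measured, 5 were above the filter in nTh1, all 7 in cTh1, 3 in TT naive and 4 on the array labelled naive. Their summed level was 10.17 in nTh1, 12.15 in cTh1, 9.33 in TT naive and 9.43 on the array labelled naive. Ebf1, a factor that acts with E proteins in B cells, was at 6.46 in nTh1, 8.24 in cTh1, 5.89 in TT naive and 5.88 on the array labelled naive. The summed level of 8 plasmacytoid dendritic cell markers was 11.05 in nTh1, 11.72 in cTh1, 10.89 in TT naive and 11.33 on the array labelled naive, highest in cTh1 as Tcf4 was. Among them, Siglech was at 6.91 in nTh1, 6.16 in cTh1, 6.54 in TT naive and 6.45 on the array labelled naive, so the cTh1 array was lowest for it. Bst2, Ccr9, Cox6a2, Klk1 and Pacsin1 were also lowest in cTh1. For the markers above the filter, the median difference was -0.36 in cTh1 over TT naive, beside 0.03 for all genes tested. Only Spib and Irf8, which B cells also express, were highest in cTh1. They were at 9.01 and 10.79 there, against 5.38 and 7.77 in TT naive. The part of such cells in the Tcf4 values was not tested.

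**Figure D5:**
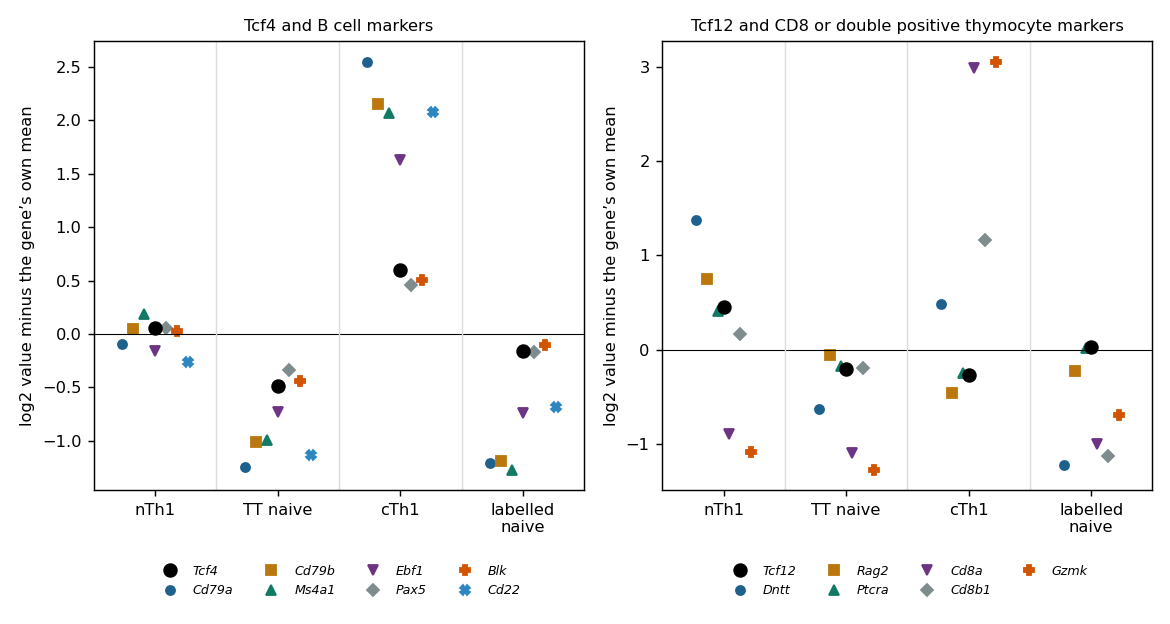
Log2 value minus the gene's own mean (vertical axis) on the 4 arrays (horizontal axis) for Tcf4 with 7 B cell markers (left) and Tcf12 with 6 markers of CD8 cells or double positive thymocytes (right). Tcf4 and all 7 B cell markers are highest in cTh1, and Tcf12, Dntt, Rag2 and Ptcra are highest in nTh1.

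The 5 genes nearest to Tcf4 in pattern were Gpr171 at a distance of 0.05, Rasa4 at 0.06, Riok1 at 0.06, Lpin1 at 0.06 and Tpd52 at 0.10. Of 2364 other genes, 181 lay within 0.5 of Tcf4. This distance takes in the size of a pattern as well as its shape, and Tcf4 spanned 1.09 against 2.00 for Id3. The counts near Tcf4 and near Id3 therefore do not show which shape is more common. Id1, Id2, Tcf3 and Tcf12 spanned less than 2-fold and were given no such list.

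Known E protein targets in T lineage cells went both ways. In nTh1 over TT naive, 12 passed the filter, of which 2 were 2-fold or more higher and 0 lower. Of all genes, 1.41% were higher and 1.09% lower. The 2 targets were Dntt at 2.01 and Hes1, a Notch target, at 1.16, with a list median of 0.17 beside -0.05 for all genes. Hes1 was below the filter in TT naive, and with the filter at the 75th percentile only 1 gene was called. In cTh1 over the array labelled naive, 4 of 12 were higher and 2 lower, where 5.13% of all genes were higher and 3.35% lower. The list median was 0.41 beside -0.02. The higher targets were the cell cycle inhibitor Cdkn1a at 4.37, the cytokine signal inhibitors Socs3 at 2.15 and Socs1, and Dntt at 1.71. The lower ones were Zbtb16 at -4.91 and Hes1. With TT naive as the baseline for cTh1, 4 of 11 were higher and 1 lower, where 7.24% of all genes were higher and 3.02% lower. The list median was 0.15 beside 0.03. Against TT naive cells, Zbtb16 was at -2.05 in cTh1 and Hes1 at 6.10 in cTh1 and 5.96 in TT naive. Notch1, Il7r, Foxo1 and Cd4 stayed within 2-fold in all 6 comparisons.

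In nTh1 over cTh1, 2 of the 12 targets were higher and 3 lower, where 3.46% of all genes were higher and 8.3% lower. The list median was -0.11 beside -0.08. Zbtb16 was higher by 2.56, while Cdkn1a was at -4.74, Socs3 at -1.88 and Socs1 at -1.15. Of the E protein targets of B lineage cells, Cd79a was at 3.79 and Ebf1 at 2.35 in cTh1 over TT naive. Both are also among the B cell markers above, and both were below the filter in TT naive. Igll1 and Vpreb1, which encode the surrogate light chain of B cell precursors, were below the filter on all 4 arrays.

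Among partners and cofactors of E and Id proteins, 14 passed the filter in each comparison. In nTh1 over TT naive, 0 of 14 reached 2-fold, where 2.5% of all genes did, and the list median was 0.03 beside -0.05. In cTh1 over the array labelled naive, where 8.48% of all genes reached 2-fold, the only 1 of 14 was Lmo4, a LIM-only adaptor, at -1.62. Lmo4 was at 9.16 in nTh1, 8.49 in cTh1 and 8.78 in TT naive, against 10.11 on the array labelled naive, which stood apart. Against TT naive, 2 of 14 were higher in cTh1, where 7.24% of all genes were. They were Lyl1, a basic helix-loop-helix partner of E proteins, at 1.37 and Fzr1, the anaphase promoting complex activator that targets Id2 for degradation, at 1.14. In nTh1 over cTh1, 3 of 14 reached 2-fold, where 11.8% of all genes did in either direction. Fzr1 was at -1.27, Lyl1 at -1.02 and the acetyltransferase Kat2a at 1.01. Ldb1, which bridges LIM-only adaptors, was between 12.05 and 12.21 on all 4 arrays, and the coactivator Ep300 between 11.18 and 11.32.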

How the data were processed

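RNA of 4 populations was measured, with 1 Affymetrix array each. The deposited log2 values were made by the authors by RMA. The submitters' processing notes name Affymetrix Expression Console, version 1.3.1. The table held 41345 probe sets, all 4 columns matched to samples by identifier and 0 were left over. The sources used here give neither summary level nor annotation version. Precision is limited by there being 1 array per group.

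Of the probe sets, 23521 had 1 symbol in the platform annotation, 1814 several and 16010 none, and 23328 gene IDs were found in RefSeq GRCm38.p6. Per gene the probe set with the highest mean was used. Genes at or above 6.61 on either array of a comparison were kept and counted at 2-fold or more, with no test. Counting was checked on simulated data. The 6 members and 6 pathway lists were chosen with earlier results of these data known. Named genes were the members, up to 4 genes with the largest difference per list and comparison, and the 5 genes nearest in pattern to members spanning 2-fold or more. Kdm5d, Eif2s3y, Uty, Xist and list genes named for small differences or for levels only (among them Hes1, Socs1, Fcer1g, Siglech, Spib, Irf8, Rag2, Cd8a, Id4, Ldb1 and Ep300) were named after their values were seen. Promoter windows were used for 4 members. Alternatives were other filters, mean of probe sets, centring, loess (span 0.3) and thresholds of 3-fold and 1.5-fold. Python 3.11.15, numpy 2.4.6, pandas 2.3.3, statsmodels 0.14.6 and matplotlib 3.10.9 were used.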

Additional observations from a re-analysis of the deposited data

Results flagged for a closer look

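For Tcf12 and Id2, the difference of the Th1 array from its naive array had opposite signs in thymus and spleen, though both spleen differences were smaller than the SD between probe sets, 0.402. Tcf12 was higher by 0.66 in nTh1 than in TT naive and was -0.30 in cTh1 relative to the array labelled naive, so the thymus difference exceeded the spleen difference by 0.96 on the log2 scale. Id2 was -0.43 in nTh1 relative to TT naive and 0.03 in cTh1 relative to the array labelled naive, so the thymus difference minus the spleen difference was -0.45. With TT naive in place of the array labelled naive, cTh1 was -0.07 for Tcf12, which turned to 0.05 with arrays centred on their medians, and 0.53 for Id2. Neither difference was tested, since each rests on 1 array per group, and culture, genotype and tissue cannot be told apart in it.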

How the results depend on the processing

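The Id3 difference kept its direction and stayed at 2-fold or more in all 4 comparisons of a Th1 array with a naive array under every alternative run, from -1.69 to -1.84 for nTh1 over TT naive and from -1.76 to -1.83 for cTh1 over the array labelled naive. The count of members at 2-fold or more moved as follows. At a 1.5-fold threshold it was 2 in nTh1 over TT naive (Id3 and Tcf12, where 8.42% of all genes passed), 2 in cTh1 over the array labelled naive (Id3 and Tcf4, 21.2%), 2 in nTh1 over cTh1 (Id2 and Tcf12, 27.9%) and 2 in nTh1 over the array labelled naive (Id2 and Id3, 19.1%). With arrays centred on their medians it was 1 in nTh1 over cTh1 (Id2, 13.8%) and 2 in nTh1 over the array labelled naive (Id2 and Id3, 7.58%). In cTh1 over TT naive it was 1 at a 3-fold threshold (Id3, 3.98%) and 1 with the filter at the 75th percentile (Id3, 12.4%), where Tcf4 was not kept. The other 34 of 42 counts were within 1.5 times, and all 144 member differences moved by less than the SD between probe sets. Only centring and loess could move a member's difference. The other filters and the mean of probe sets left it as it was, since each member had 1 probe set. This holds for the Id3 ranges above too. Of 252 list counts, computed with alternatives added after the data were examined, 47 moved by more than 1.5 times. The 41 genes with both naive arrays above both Th1 arrays became 11 at a 3-fold threshold and 122 at a 1.5-fold threshold, and their 21 counterparts became 4 and 85. No paired analysis was possible because each group has 1 array. Id1 entered a comparison only with no level filter, where it stayed within 2-fold.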
